A study of Mus musculus with 7 samples.

Results

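The genes that encode the proteins of the cytoplasmic ribosome were followed through 4 RNA-seq libraries and 3 ChIP-seq libraries of mouse embryonic stem cells (ESCs). They were chosen by name as the protein-coding genes of GENCODE M1 called Rpl or Rps with a digit, or Rplp0, Rplp1, Rplp2 and Rpsa, without the Rps6 kinases and without names that contain -ps. This gave 85 genes of 22380 protein-coding genes and 37310 genes in all. Of these, 45 encode proteins of the large 60S subunit and 31 proteins of the small 40S subunit, and these 76 are called core genes here. The other 9 were Rpl3l, Rpl7l1, Rpl10l, Rpl22l1, Rpl36al, Rpl39l, Rps27l and Rps4y2, which are paralogs of core genes, and Rps19bp1, whose product binds the small subunit protein Rps19 and is not itself a ribosomal protein. All 85 held at least 200 exonic bases that belong to no other gene and had a mean level of at least 1 FPKM (alignments scaled to a kilobase of exon and to 1000000 alignments on genes), so that none was lost to a filter. They lie on 19 chromosomes.

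Ribosomal proteins are made in near equal numbers, and their mRNAs are among the most abundant in growing cells. Most of these mRNAs start with a run of pyrimidines at the cap, the 5′ terminal oligopyrimidine (TOP) motif, through which their translation responds to nutrients and to mTOR. Vertebrate ribosomal protein genes are short genes of several exons, often with small nucleolar RNAs in their introns, and they have left many processed pseudogenes across the genome. Several have a paralog, often a retrotransposed copy, used in the germ line or in muscle.

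RNA was measured in 4 clones of F123, a hybrid ESC line that carries 1 genome of the CAST and 1 of the 129 mouse strain, with 1 library for each. WT kept the distal super-enhancer of Sox2, which encodes a transcription factor of pluripotency, on both alleles. The enhancer was deleted by CRISPR on the 129 allele in CAST+/129-, on the CAST allele in CAST-/129+, and on both in CAST-/129-. H3K4me3, a histone mark of active promoters, and H3K27ac, a mark of active promoters and enhancers, were measured in F123 cells. H3K27ac was also measured in J1, an ESC line of a 129 background. Each genotype is 1 clone with 1 library, and no difference has a replicate check or a test. Alleles were not told apart.

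The libraries held 33684661 alignments for WT, 16380802 for CAST+/129-, 8613113 for CAST-/129+ and 7557984 for CAST-/129-, after identical alignments had been collapsed. They stood for 86875622, 33135473, 17449020 and 13926273 reads, where a read split by splicing counts once for each of its aligned segments. Sox2 was at 175, 82.0, 73.1 and 7.40 FPKM in the order WT, CAST+/129-, CAST-/129+ and CAST-/129-, which follows the labels. Summed over 10 ESC markers, Sox2 among them, the level was 1823, 1584, 1488 and 1095 FPKM in distinct alignments and 2868, 2373, 2069 and 1526 in reads, with none at 0. Dppa5a was the largest part of that sum, at 461, 530, 547 and 480 FPKM in distinct alignments. Of the 10, 8, 7 and 9 were below WT in CAST+/129-, CAST-/129+ and CAST-/129- in distinct alignments, with 1, 1 and 5 past 3-fold lower. Summed over 12 fibroblast markers, the level was 298, 322, 358 and 1043 FPKM in distinct alignments, with Lum at 0 in WT, and 423, 316, 355 and 1261 FPKM in reads, where both monoallelic clones were below WT. Fn1 and Vim, which cells other than fibroblasts also express, made up most of that sum in WT, at 191 and 83.9 FPKM. Of the 12, 9, 10 and 12 were above WT in CAST+/129-, CAST-/129+ and CAST-/129-, with 3, 3 and 9 past 3-fold higher in distinct alignments, and in reads 10, 10 and 11 were above WT. Col1a1, a collagen chain, was at 3.48, 38.99, 38.9 and 174 FPKM, and S100a4 at 1.78, 32.7, 28.1 and 147 in distinct alignments. At least 1.5-fold lower in distinct alignments were 2, 2 and 0 of the 12. In both monoallelic clones these were Fn1, at 191, 110, 104 and 210 FPKM over the 4 libraries, and Thy1, at 11.4, 5.69, 6.28 and 27.7. Per the study's methods, transfected cells were put on fibroblast feeder cells to recover. Cells were passaged without feeder cells before harvest. The part of fibroblast-like cells in the differences from WT was not tested. Neither marker set was used to adjust a level. In bulk RNA, fewer cells of a type and less RNA per cell cannot be told apart.

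Runs of pyrimidines near the annotated start were looked for. RefSeq promoters (GRCm38.p6) matched 63 of the 85 genes by symbol. The 30 bases around the annotated start are printed for the 6 core genes with the highest level in WT reads that matched, and for Rpl39l and Rpl10l, the paralogs on which later results turn. Capitals mark runs of at least 8 pyrimidines that overlap the stretch from 20 bases before to 30 bases after the start, and the start is between the fifteenth and the sixteenth base.
Rps26, chr10:128626492.0-128626521.0, minus strand: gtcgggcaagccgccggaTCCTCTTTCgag
Rps12, chr10:23787195.0-23787224.0, minus strand: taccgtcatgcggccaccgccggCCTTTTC
Rpl14, chr9:120571502.0-120571531.0, plus strand: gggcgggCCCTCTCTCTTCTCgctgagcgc
Rpl4, chr9:64173372.0-64173401.0, plus strand: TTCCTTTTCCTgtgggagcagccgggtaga
Rps24, chr14:24490663.0-24490692.0, plus strand: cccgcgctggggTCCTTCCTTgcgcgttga
Rpl38, chr11:114668565.0-114668594.0, plus strand: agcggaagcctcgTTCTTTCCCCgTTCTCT
Rpl39l, chr16:10170213.0-10170242.0, plus strand: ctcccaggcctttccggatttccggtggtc
Rpl10l, chr12:66284387.0-66284416.0, minus strand: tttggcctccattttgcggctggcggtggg
Of 55 core genes with a promoter in the table, 39 (70.9%) held such a run, against 7147 of 27025 genes of all kinds (26.4%). Among the 8 paralogs and other genes that matched it was 4, and neither Rpl39l nor Rpl10l shows a run in the window printed above. A run counted here need not lie at the cap, so these counts are not counts of TOP motifs. The run of Rpl4 ends before the annotated start, and those of Rps26 and Rps12 begin after it. A run can continue past the printed window.

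Other short motifs were searched in the same promoters on both strands, from 250 bases before to 50 bases after the start. CCGGAAG, the core of the site bound by ETS factors such as Gabpa, was found in 22 of 55 core genes (40%) and in 9.93% of all promoters. TGACGT, part of the cyclic AMP response element, was found in 12 (21.8%) and in 8.37%. GGGCGG, the GC box of Sp factors, was in 33 (60%) and in 38.2%, and ATGGCGGC, which holds the core bound by Yy1, was in 4 (7.27%) and in 2.60%. TATAAA was the exception, with 6 genes (10.9%) against 15.7% of all promoters. A stretch can count for more than 1 motif, and a match describes the letters and not binding. All promoters were taken whether or not the gene is expressed in these cells, here and for the runs of pyrimidines. Shares among expressed genes were not counted, so these differences may not be particular to ribosomal protein genes.

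The level of these genes depended on what was counted. In distinct alignments, the median core gene was at 126 FPKM in WT, 170 in CAST+/129-, 205 in CAST-/129+ and 174 in CAST-/129-. In reads, with each alignment weighted by the number of reads collapsed into it, the median core gene was at 441, 535, 491 and 397 FPKM. WT was thus the lowest of the 4 libraries in one unit and the next to lowest in the other. Over all 85 genes, the share of counts on genes was 1.62%, 2.14%, 2.47% and 2.16% in distinct alignments and 5.62%, 7.01%, 6.31% and 5.13% in reads, in the same order of libraries.

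**Figure D1:**
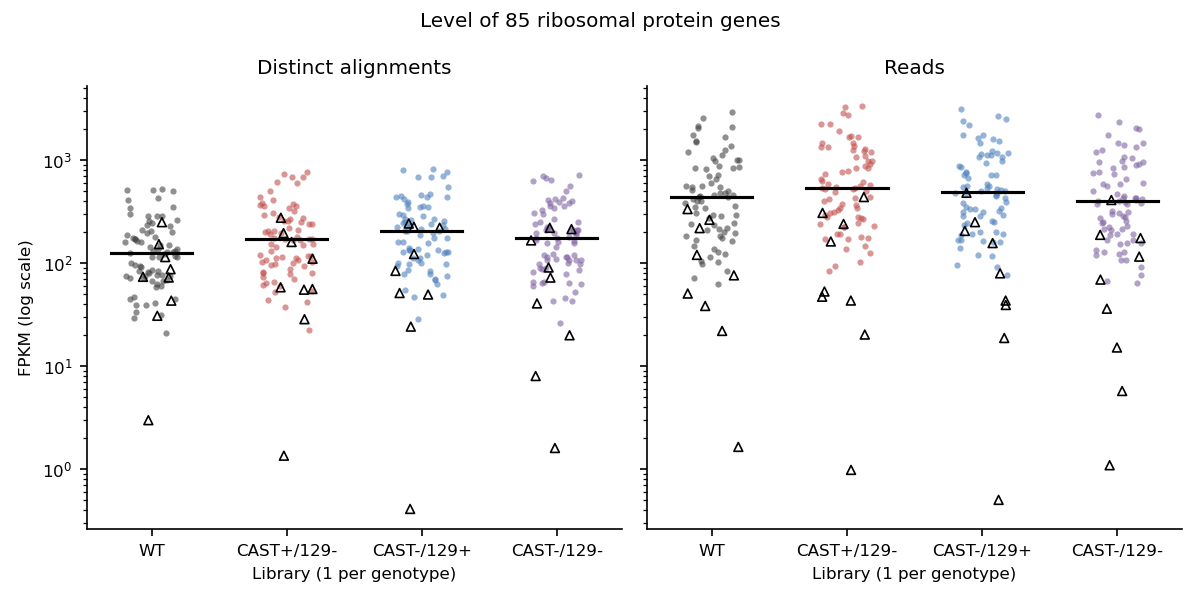
Level of the 85 genes in FPKM, on a log axis, in each RNA-seq library, counted as distinct alignments on the left and as reads on the right. Dots are the 76 core genes, triangles the 9 paralogs and other genes, and lines the median of the core genes, which is lowest in WT (126) in distinct alignments and in CAST-/129- (397) in reads.

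The highest core genes in WT distinct alignments were Rpl32, Rpl8, Rplp1, Rpl4 and Rps26, at 522, 517, 507, 498 and 425 FPKM. Rpl8 is a core protein near the catalytic centre of the 60S subunit, Rplp1 is part of the stalk that recruits elongation factors, and Rps26 lies where the mRNA leaves the 40S subunit. Among the highest in WT reads were Rpl32, Rps26, Rps12 and Rpl8, at 2931, 2557, 2139 and 2026 FPKM. Rpl32, Rps26 and Rpl8 were among the 5 highest in both units.

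At the low end of WT distinct alignments were Rpl3l at 3.0, Rps15a at 21.1, Rps19 at 29.3, Rps19bp1 at 30.9 and Rpl21 at 31.7 FPKM. In WT reads they were Rpl3l at 1.65, Rps19bp1 at 22, Rpl39l at 38.4, Rpl10l at 50.8 and Rpl29 at 63.2 FPKM. Rps15a, Rps19 and Rpl21 are core genes whose gene models hold 6262, 4685 and 3400 exonic bases, far beyond their coding sequences, and this lowers a level per length. Over coding sequence alone, a way of counting added after the data were seen, Rps15a was at 1275, Rps19 at 579 and Rpl21 at 454 FPKM in WT reads, and the median core gene at 1142. The order of core genes by level thus rests in part on the gene model, and Rpl29, at 79.1 FPKM, was the lowest core gene over coding sequence in WT reads.

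Reads of these genes were collapsed more than the average over all genes. In WT, 1 distinct alignment stood for 9.03 reads on the 85 genes and for 2.61 reads on all genes. The ratio on the 85 genes was 5.83 in CAST+/129-, 4.18 in CAST-/129+ and 3.49 in CAST-/129-, so it was lower in each shallower library. Strong collapse was not particular to these genes, as Eef1a1, an abundant elongation factor mRNA, was at 526 FPKM in distinct alignments and 2406 in reads in WT. Across genes in WT it ran from 1.44 in Rpl3l to 34.7 in Rps21. Rps21, a small protein of the 40S subunit with short exons, lies at chr2:179992082-179993150 in NCBIM37.

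The alignments list the parts of a spliced read as separate segments that stop at exon boundaries, so different reads across the same junction can give the same segment. In Rps21, 96.8% of WT reads were in segments with an end at an exon boundary. Rpl38, a 60S protein, had 95.6% and 27.6 reads for each distinct alignment, and Rps12, a 40S protein, 94.1% and 24.4. At the other end, Rps4y2, a gene of 1 exon, had 0.00749% and 2.28, and Rpl10l, also of 1 exon, 1.19% and 1.82. Over the 85 genes in WT, Spearman's rho between the share at boundaries and the reads for each alignment was 0.73, a description across genes of 1 library that share depth and splicing structure.

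**Figure D2:**
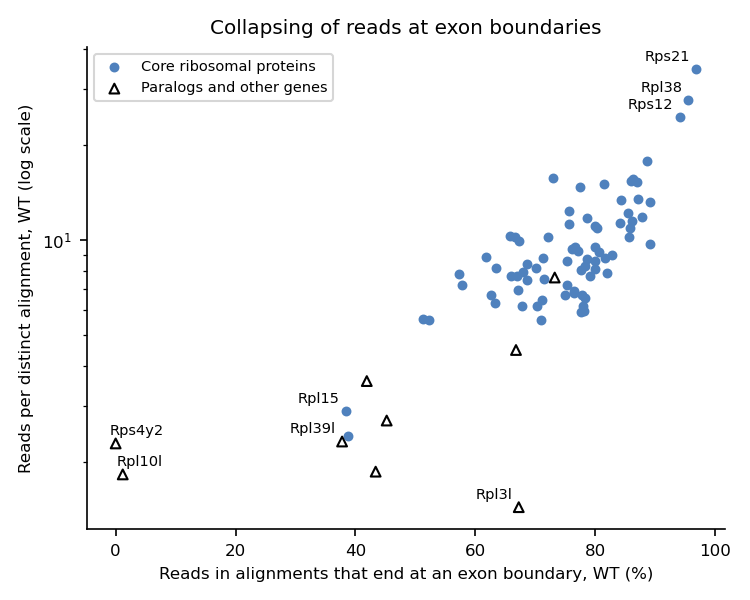
Reads for each distinct alignment in WT (log axis) against the percent of WT reads in alignments with an end at an exon boundary, with 1 point for each of the 85 genes. The ratio runs from 1.44 in Rpl3l to 34.7 in Rps21, and the 3 genes with the highest ratios, Rps21, Rpl38 and Rps12, have 94.1% to 96.8% of their reads at boundaries.

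In CAST+/129-, most of the 85 genes were above WT in both units, by a small amount. Above WT were 82 in distinct alignments and 77 in reads, and below it 3 and 8, with Rpl10l, Rpl3l and Rpl7l1 below in both. The median log2 ratio, taken on FPKM + 4, was 0.40 in distinct alignments and 0.36 in reads, while over all genes tested it was -0.03 and 0.00. Of the 85, 7 were at least 1.5-fold higher and 1, Rpl10l, at least 1.5-fold lower in distinct alignments, where 6.68% and 9.60% of 13826 genes were. In reads 6 were higher and 2, Rpl10l and Rpl7l1, lower, with 7.14% and 7.81% of 12940 genes as background. The share of the 85 that was 1.5-fold higher was near the background and the share that was lower was below it. With library size taken as all alignments in the file, or by a median of ratios, 13 and 14 were higher in distinct alignments. The share of all genes under these library sizes was not counted. No member was past 3-fold in either unit, which 1.42% of all genes in distinct alignments and 1.35% in reads were.

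In CAST-/129+ the unit set the size of the difference. The median log2 ratio was 0.63 in distinct alignments and 0.18 in reads, against -0.07 and 0.02 over all genes. In distinct alignments 52 of the 85 were at least 1.5-fold higher and 2, Rpl10l and Rpl3l, lower, with a background of 9.05% and 12.2%. With library size taken as all alignments in the file, or by a median of ratios, 32 and 63 were higher. These counts have no all-gene share beside them, as a change of library size shifts every gene and that share was not counted. In reads Rps19bp1, Rpl34 and Rpl27 were higher and Rpl10l lower, with a background of 8.88% and 7.99%. The count of 3 higher genes in reads was below the background share of 85 genes. None was past 3-fold, beside 1.83% and 1.79% of all genes.

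In CAST-/129- the unit set the direction. The median log2 ratio was 0.44 in distinct alignments and -0.11 in reads, against -0.08 and 0.03 over all genes. In distinct alignments 77 of the 85 were above WT and 8 below, and in reads 23 were above and 62 below. At least 1.5-fold higher were 11 in distinct alignments and 1 in reads, with a background of 10.5% and 12.4%, and the 1 in reads was Rps19bp1. With library size taken as all alignments in the file, or by a median of ratios, 20 and 24 were higher in distinct alignments, again without a count over all genes. At least 1.5-fold lower were Rpl39l and Rpl10l in both units and Rpl13 in reads, with a background of 14.5% and 8.72%. Past 3-fold were Rpl39l and Rpl10l in distinct alignments and Rpl39l in reads, and the background was 3.03% and 3.0%. All 3 comparisons share the WT library, which is also the deepest, with over 2 times the alignments and reads of any other.

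Rps21 shows what the unit does to a single gene. It was at 75.9, 117, 155 and 163 FPKM in distinct alignments, in the order WT, CAST+/129-, CAST-/129+ and CAST-/129-, and at 1009, 1339, 1161 and 1077 FPKM in reads. In CAST-/129- this was 215% of WT (95% binomial interval 197 to 234) in distinct alignments and 107% (104 to 109) in reads. These intervals take each alignment or read as an independent count, so they can be too narrow, above all in reads. When each library was thinned to the reads of the smallest and the distinct alignments expected at that depth were counted, the log2 ratios of Rps21 were 0.09, 0.02 and -0.01. Rpl38 and Rps12, the other genes with over 20 reads for each alignment, were at 0.93 and 0.91 on the log2 scale in CAST-/129+ in distinct alignments and at -0.29 and 0.21 in reads.

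Depth can be set equal in this way for all genes. At equal reads the median log2 ratio of the 85 genes was 0.21 in CAST+/129-, 0.18 in CAST-/129+ and -0.05 in CAST-/129-, where over all genes it was 0.02, 0.04 and 0.02. Above WT were 79, 78 and 21 of the 85. In the monoallelic clones the direction was therefore the same in distinct alignments, in reads and at equal reads, and in the biallelic clone it was not. Among all genes with a mean of at least 100 FPKM, most of which are no ribosomal protein genes, the medians at equal reads were 0.23, 0.18 and -0.03. In distinct alignments the abundant genes had medians of 0.30, 0.36 and 0.22, below those of the 85, and in reads 0.29, 0.19 and -0.02.

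**Figure D3:**
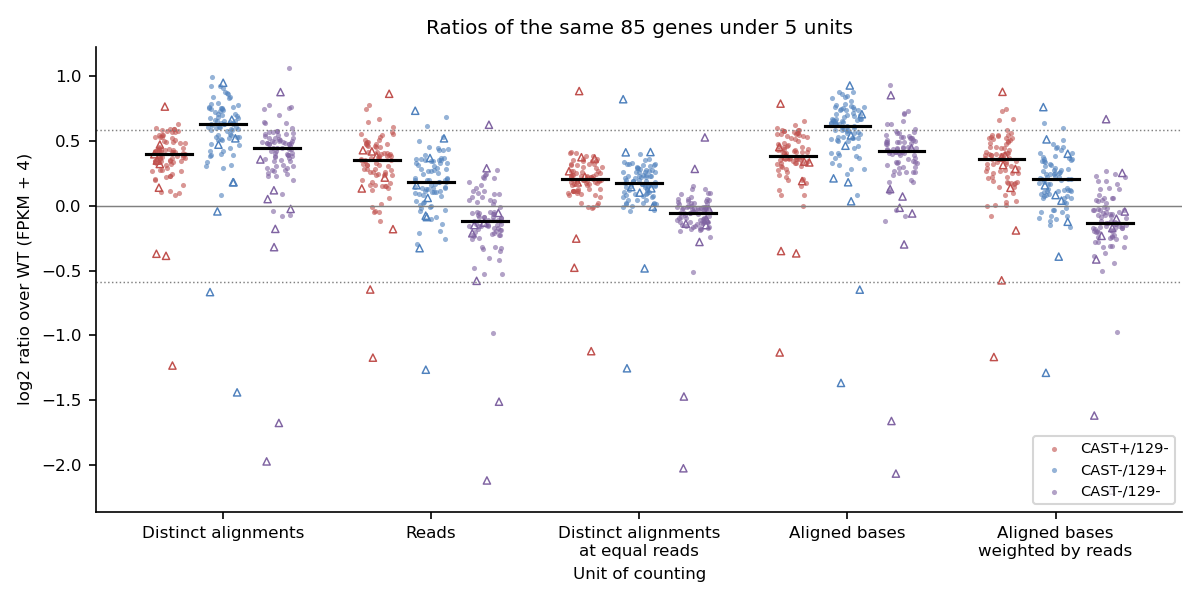
Log2 ratio over WT (FPKM + 4) of the 85 genes in each clone under 5 units of counting, with dots for core genes, triangles for paralogs and other genes, black lines for the median of the 85 and dotted lines at 1.5-fold. The median for CAST-/129- is 0.44 in distinct alignments and -0.11 in reads, and the 2 lowest triangles in CAST-/129- are Rpl39l and Rpl10l.

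CAST-/129+ and CAST-/129- are the libraries closest in depth, though CAST-/129+ is the deeper, and were set against each other without WT, a comparison added after the data were seen. The median log2 ratio of CAST-/129- over CAST-/129+ was -0.18 in distinct alignments, -0.30 in reads and -0.23 at equal reads. Lower in CAST-/129- were 82, 84 and 84 of the 85. Of all genes 53.2% were lower in distinct alignments, 46.7% in reads and 7081 of 13577 at equal reads, with medians of -0.023, 0.023 and -0.015. For the 85 genes the direction was the same in the 3 units. It was not particular to them. Genes with a mean of at least 100 FPKM had medians over WT of 0.19 in CAST-/129+ and -0.02 in CAST-/129- in reads, and 0.18 and -0.03 at equal reads. The summed level of fibroblast markers was 1043 FPKM in CAST-/129- and 358 in CAST-/129+, and the part of such cells in the difference was not tested.

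Genes of the large and the small subunit had similar medians. In CAST-/129+ the median log2 ratio was 0.64 over 45 genes of the 60S subunit and 0.61 over 31 of the 40S subunit in distinct alignments, and 0.20 and 0.18 in reads. In CAST-/129- it was 0.46 and 0.48 in distinct alignments and -0.11 and -0.12 in reads. The spread among core genes was narrow, with an interquartile range from 0.53 to 0.75 in CAST-/129+ in distinct alignments and from 0.10 to 0.34 in reads. That of all genes ran from -0.35 to 0.24 and from -0.23 to 0.27. The members with the highest ratios in distinct alignments were Rps19bp1, Rpl34 and Rps15 in CAST+/129- (0.77, 0.63 and 0.60), Rps21, Rps27l and Rpl38 in CAST-/129+ (0.99, 0.95 and 0.93), and Rps21, Rps27l and Rps12 in CAST-/129- (1.06, 0.88 and 0.78).

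Rpl13, a 60S protein, stood apart from the other core genes in reads. At chr8:125626250-125629144 in NCBIM37, it was at 548, 659, 477 and 275 FPKM in reads, in the order WT, CAST+/129-, CAST-/129+ and CAST-/129-, and at 121, 152, 161 and 115 in distinct alignments. Its level in CAST-/129- was 50.2% of WT (48.8 to 51.6) in reads, 94.7% (89.6 to 100.2) in distinct alignments, and its log2 ratio at equal reads was -0.51, the lowest of all core genes. It was named after its values were seen, as the core gene past 1.5-fold in CAST-/129- reads. Over all genes tested on chromosome 8 the median log2 ratio in reads was 0.04, -0.27 and -0.17, and over 38 genes within 1 Mb of Rpl13 it was 0.07, -0.22 and -0.12.

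The members with the lowest ratios were paralogs. Rpl10l is an autosomal copy without introns of the X-linked Rpl10, which joins the 60S subunit late in its assembly, and it is best known from the male germ line. It lies on the minus strand at chr12:67384368-67385388 in NCBIM37. In distinct alignments it was at 72.6 FPKM in WT, 28.6 in CAST+/129-, 24.3 in CAST-/129+ and 19.99 in CAST-/129-, from 1843, 364, 150 and 119 alignments. In reads it was at 50.8, 20.3, 18.8 and 15.2 FPKM. The level in the clones was thus 39.4% (35.1 to 44.1), 33.4% (28.1 to 39.4) and 27.5% (22.7 to 33.1) of WT in distinct alignments and 40%, 37.0% and 29.96% in reads. Of the 85 genes, it was the only one past 1.5-fold in the same direction in each clone in both units. Its partner Rpl10 was at 83.7, 113, 139 and 122 FPKM in distinct alignments, so that Rpl10l made up 46.5% of the summed level of the pair in WT and 20.2%, 14.9% and 14.1% in the clones. In reads these shares were 19.5%, 6.52%, 6.12% and 5.62%. They depend on the gene models, of 2053 exonic bases for Rpl10 and 1021 for Rpl10l. Over coding sequence in distinct alignments, Rpl10l was at 79.8, 34.3, 23.9 and 23.0 FPKM and Rpl10 at 227, 306, 379 and 334, a smaller share in each library. The shares in reads also depend on the unit. In aligned bases weighted by reads, Rpl10l was at 66.6, 27.4, 24.9 and 19.0 FPKM and Rpl10 at 159, 225, 220 and 193, a larger share than in reads in each library.

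Rpl39l was lower in the biallelic clone, whereas both monoallelic clones were at or above WT. It is the paralog of the X-linked Rpl39, which lines the tunnel through which the new peptide leaves the ribosome. It lies on the plus strand at chr16:10170319-10175004 in NCBIM37 and has 3 exons. In distinct alignments it was at 43.3, 58.3, 49.7 and 8.05 FPKM, from 894, 604, 250 and 39 alignments, and in reads at 38.4, 53.1, 43.4 and 5.76. CAST-/129- was at 18.6% of WT (13.1 to 25.6) in distinct alignments, and its log2 ratio was -1.97 there, -2.12 in reads and -2.03 at equal reads. Rpl39 itself was at 77.0, 99.5, 133 and 106 FPKM in distinct alignments and at 293, 366, 354 and 279 in reads. Rpl39l made up 35.98%, 36.96%, 27.2% and 7.04% of the summed level of the pair in distinct alignments and 11.6%, 12.7%, 10.9% and 2.02% in reads. Here too the share was smaller over coding sequence, where Rpl39l was at 82.6, 97.5, 90.4 and 11.5 FPKM in reads and Rpl39 at 1439, 1823, 1815 and 1437.

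The coding sequences of this pair, from the GENCODE M1 transcripts, show how far reads can tell them apart. Each has 156 bases, and capitals mark the 23 at which they differ.
Rpl39: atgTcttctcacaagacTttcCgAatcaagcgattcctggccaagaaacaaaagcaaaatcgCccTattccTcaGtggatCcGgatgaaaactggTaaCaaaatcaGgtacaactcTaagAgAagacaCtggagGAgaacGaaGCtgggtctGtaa
Rpl39l: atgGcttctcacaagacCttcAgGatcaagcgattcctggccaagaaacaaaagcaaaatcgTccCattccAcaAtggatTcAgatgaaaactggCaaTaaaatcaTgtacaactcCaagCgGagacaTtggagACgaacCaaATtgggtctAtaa
They are identical at 85.3% of positions, and the longest stretch without a difference is 38 bases. Of all 50-base windows along the Rpl39l transcript, 0.661% have an exact copy elsewhere in the genome, against 44.4% for Rpl39 and a median of 50% over the 85 genes. Rpl10l had 26.3% and Rpl10 85.4%. Levels of most core genes are therefore uncertain in how reads were split between gene and pseudogene, and only 9 of the 85 had at most 10% of such windows.

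Rpl3l, the paralog of Rpl3 used in heart and skeletal muscle, was the lowest member in each library. It was at 3.0, 1.36, 0.414 and 1.61 FPKM in distinct alignments, from 119, 27, 4 and 15 alignments. Its share of WT was 45.3% (28.6 to 69.2), 13.8% (3.70 to 36.2) and 53.7% (29.2 to 92.2), with wide intervals at such counts. Rpl7l1, related to a factor of 60S assembly, was at 73.7, 56.2, 84.2 and 72.5 FPKM, and so was lower than WT in CAST+/129-, at 76.2% (72.1 to 80.4), and not in the other monoallelic clone, at 114% (107 to 121). In reads it was at 76.2, 47.3, 79.7 and 69.3 FPKM, the same order. Rpl7, the 60S protein it is named for, was at 115, 149, 175 and 156 FPKM in distinct alignments.

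Rpl22l1, which can stand in for Rpl22 in the ribosome, was at 153, 196, 221 and 166 FPKM in distinct alignments and at 263, 307, 250 and 175 in reads. It made up 56.9%, 57.9%, 55.6% and 52.6% of the Rpl22 pair in reads over the whole gene models, of which that of Rpl22 holds 2911 exonic bases and that of Rpl22l1 489. Over coding sequence the order turned in each library, with Rpl22 at 1266, 1433, 1273 and 994 FPKM in reads and Rpl22l1 at 328.5, 372, 310.2 and 216. Over the whole model Rpl22 was at 199, 223, 200 and 158 FPKM in reads. Rpl36al, a copy of Rpl36a in 1 exon, was at 87.4, 110, 122.7 and 90.8 FPKM in distinct alignments, and Rpl36a at 59.99, 79.5, 113 and 100.1. In distinct alignments Rpl36al was thus above Rpl36a in WT and both monoallelic clones and below it in CAST-/129-. Over coding sequence it was above in WT alone, at 275, 329, 373 and 260.5 FPKM beside 262, 351, 497 and 442 for Rpl36a. In reads it was below Rpl36a in the 4 libraries, at 28.0%, 32.0%, 31.4% and 28.0% of the pair, and Rpl36a had 13.4 reads for each alignment in WT and Rpl36al 3.59. In aligned bases weighted by reads, Rpl36al was at 124, 164, 165 and 120 FPKM beside 225, 249, 244 and 215 for Rpl36a, again below but with a larger share than in reads.

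Rps27l, a paralog of Rps27 and a known target of p53, was at 115, 160, 225 and 214 FPKM in distinct alignments and at 334, 437, 482 and 410 in reads. WT was the lowest library in both units. Its level in CAST-/129+ was 197% of WT (183 to 211) in distinct alignments and 144% (139 to 149) in reads, and in CAST-/129- 187% (173 to 201) and 122.5% (118 to 128). Rps27 was at 1240, 1656, 1591 and 1386 FPKM in reads. Cdkn1a, the best known p53 target, was at 49.1, 49.4, 51.5 and 131 FPKM in distinct alignments, and Trp53, which encodes p53, at 65.2, 96.9, 85.7 and 68.9.

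Rps4y2 is a copy of Rps4x in 1 exon, inside Tmtc1, which is on the opposite strand. It was at 250, 276, 242 and 220 FPKM in distinct alignments and at 219, 240, 205 and 188 in reads, and the 4 libraries lay within 1.5-fold of each other in both. Rps4x was at 166, 204, 244 and 212 FPKM in distinct alignments and at 442, 524, 539 and 415 in reads. Over coding sequence in distinct alignments Rps4y2 was the lower of the pair in each library, at 268, 291, 251 and 239.8 FPKM beside 313, 388, 476 and 411. Rps19bp1, also known as a regulator of the deacetylase Sirt1, was higher in each clone, at 30.9, 55.3, 51.3 and 40.7 FPKM in distinct alignments and 22, 43.4, 39.3 and 36.2 in reads. In reads this was 197% (180 to 216), 178% (157 to 202) and 164% (143 to 188) of WT. In distinct alignments CAST-/129- was at 132% (112 to 155), under 1.5-fold.

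**Figure D4:**
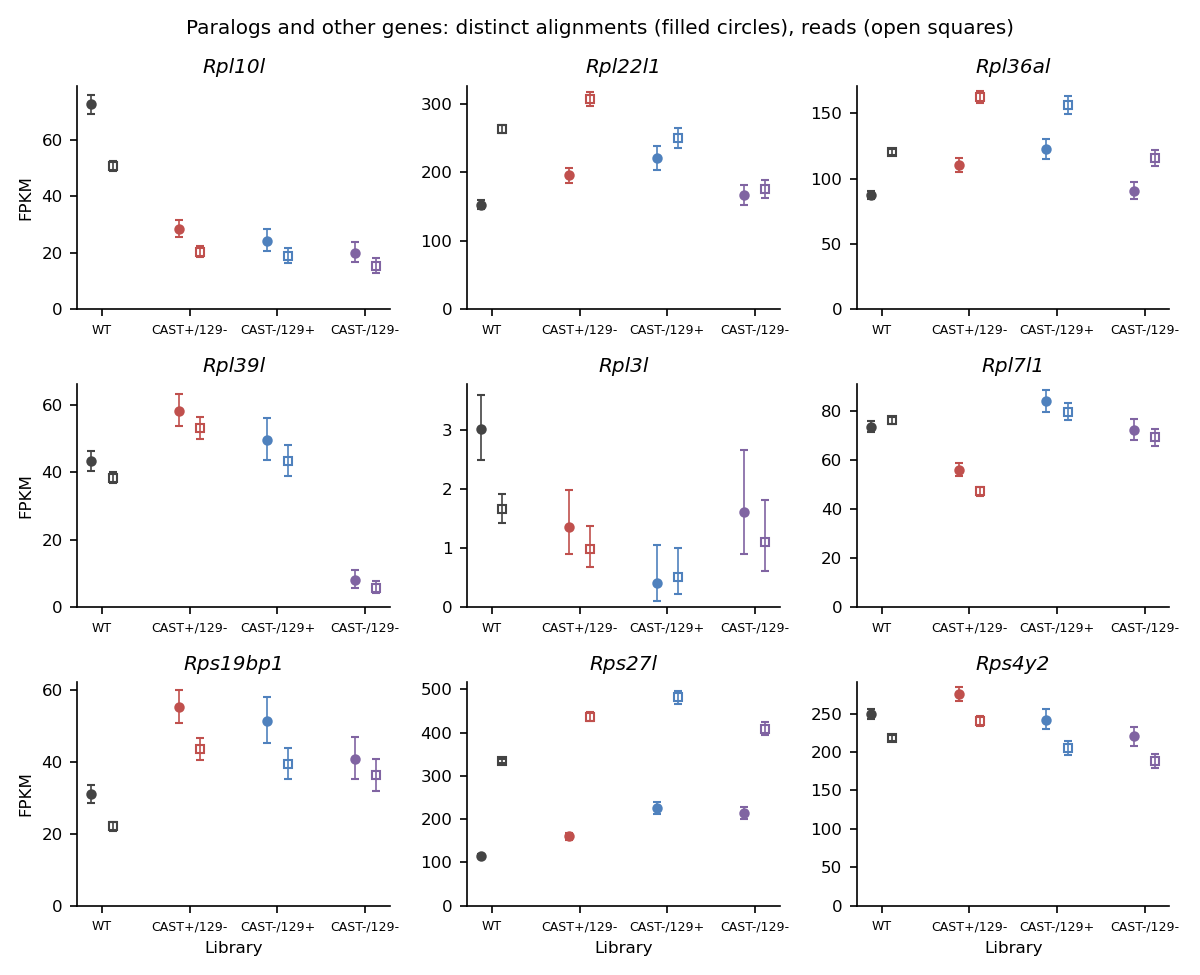
FPKM of the 9 paralogs and other genes in the 4 RNA-seq libraries, in distinct alignments (filled circles) and in reads (open squares), with exact 95% Poisson intervals of the count. Rpl10l is highest in WT (72.6 in distinct alignments) and Rpl39l lowest in CAST-/129- (8.05).

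Other genes of the pathway were taken from lists. Their counts past 1.5-fold in distinct alignments are to be read against all genes, of which 6.68%, 9.05% and 10.5% were higher and 9.60%, 12.2% and 14.5% lower in CAST+/129-, CAST-/129+ and CAST-/129-. Fau and Gnb2l1 encode ribosomal proteins that the naming rule leaves out. Fau was at 297, 414, 489 and 402 FPKM in distinct alignments and at 791, 1060, 1043 and 818 in reads, and Gnb2l1 at 291, 389, 352 and 287 in reads. Of 15 other mRNAs that carry a TOP motif, among them the elongation factors Eef1a1 and Eef2, 2, 5 and 2 were at least 1.5-fold higher and none lower in distinct alignments, with medians of 0.36, 0.49 and 0.44. The counts of 2 of 15 were near the background share. In reads, Eef1d was at least 1.5-fold higher in CAST+/129- and CAST-/129+ (0.66 and 0.60), Pabpc1, a poly(A) binding protein, was lower in CAST+/129- (-0.83), and the medians were 0.21, 0.14 and -0.06. In CAST-/129-, Tpt1 was the highest (0.68 in distinct alignments, 0.16 in reads) and Pabpc1 the lowest (0.07 and -0.58).

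Ribosome assembly factors had medians above that of all genes in each clone. Of 43 measured, 8, 9 and 1 were at least 1.5-fold higher and none lower in distinct alignments, with medians of 0.42, 0.37 and 0.19, and in reads 6, 3 and 2 were higher and none lower, with medians of 0.37, 0.23 and 0.15 and a background of 7.14%, 8.88% and 12.4% higher. In reads the counts of 3 and 2 of 43 were below that background. The 1 of 43 higher in CAST-/129- was below the background share of 10.5%. In CAST-/129- the ends of the list were Eif6, which keeps the subunits apart, at 0.64, and Rrp1b, a nucleolar factor, at -0.27. Of 14 genes of RNA polymerase I and its factors, which make ribosomal RNA, 2, 1 and 0 were higher and 0, 1 and 2 lower in distinct alignments, with medians of 0.19, 0.09 and -0.13. Cd3eap was the highest in CAST-/129- (0.55) and Twistnb the lowest (-0.69). The all-gene medians beside these were -0.03, -0.07 and -0.08 in distinct alignments and 0.00, 0.02 and 0.03 in reads.

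Proteins of the mitochondrial ribosome, a separate particle, had medians of 0.30, 0.30 and 0.03 in distinct alignments and 0.28, 0.29 and 0.05 in reads over 76 of 77 genes. At least 1.5-fold higher were 5, 10 and 3 and lower 0, 0 and 3 in distinct alignments, where the 5 in CAST+/129- were near the 6.68% and the 3 in CAST-/129- below the 10.5% of all genes. Mrpl20 was the highest in CAST-/129- (0.63) and Mrps2 the lowest (-0.79). Over 55 of 58 genes named Eif1 to Eif6, most of them initiation factors, the medians were 0.32, 0.39 and 0.24 in distinct alignments and 0.16, 0.18 and 0.05 in reads, with Eif4g3 the highest in CAST-/129- (1.56) and Eif4ebp1, an inhibitor of cap-dependent initiation, the lowest (-0.77). At least 1.5-fold higher were 4, 15 and 8, and lower 2, 1 and 2, in distinct alignments, and the 4 in CAST+/129- were near the 6.68% of all genes.

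Among 18 regulators, Myc, which raises transcription of ribosomal genes, was at 20.7, 40.8, 28.9 and 31.2 FPKM and Mycn at 26.5, 35.0, 50.04 and 41.1 in distinct alignments. Both were lowest in WT. Eif4ebp1 was at 218, 274, 179 and 127 FPKM. Cdkn1a was the highest of the list in CAST-/129- and Eif4ebp1 the lowest. At least 1.5-fold higher were 1, 1 and 2 of the 18, near the background of 6.68%, 9.05% and 10.5%, and lower were 0, 0 and 2.

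Promoters of ribosomal protein genes were among the more strongly marked ones in unedited ESCs. Counted in 5′ ends within 2 kb of each gene start over the mean of its chromosome in the same library, the median over the 85 genes was 18.6-fold for H3K4me3 and 15.2-fold for H3K27ac in F123 and 7.92-fold for H3K27ac in J1. Over 11639 protein-coding genes at 1 FPKM or more in WT the medians were 9.45, 4.84 and 3.798. The fold over the mean was at least 5 in 81, 77 and 68 of the 85 genes. Of the 11639 genes at 1 FPKM or more, 8969, 5726 and 4492 reached the same mark, so for H3K4me3 most expressed genes did. These libraries held 7108751, 1576875 and 7743500 distinct alignments, with no input library analysed here. They stood for 9007794, 8047321 and 81285265 reads, or 1.27, 5.10 and 10.5 for each alignment, so collapse was unequal. In reads the medians over the 85 genes were 18.7, 15.2 and 6.88. Over the 11639 genes they were 9.11, 4.77 and 3.355.

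The highest H3K4me3 was at Rpl32 (31.5-fold, Poisson interval 28.4 to 34.8), and the highest H3K27ac was at Rps21 in F123 (41.4) and at Rpl10 and Rpl39 in J1 (30.6 each). The median of the 9 paralogs and other genes was 11.8, 5.75 and 4.56, below the 19.1, 15.7 and 8.19 of the core genes. Low H3K27ac was not confined to the 9, as core genes such as Rpl27 (3.02 in F123 and 3.08 in J1) and Rplp0 (4.33 and 3.01) were also under 5-fold. Rpl3l was at 1.83-fold (1.16 to 2.74) for H3K4me3, 1.23 (0.334 to 3.14) for F123 H3K27ac and 1.72 (1.12 to 2.52) for J1 H3K27ac. Rpl39l was at 4.17 (3.02 to 5.62), 1.35 (0.279 to 3.96) and 2.71 (1.82 to 3.90), and Rpl10l at 4.98 (3.68 to 6.58), 4.34 (1.98 to 8.23) and 2.09 (1.31 to 3.16). Of the core genes, Rpl13a had the lowest H3K4me3, 4.45 (3.29 to 5.89), and H3K27ac of 1.54 and 2.16, counted at the outer end of a gene model of 13 exons. For H3K4me3 all of the 9 paralogs and other genes except Rpl3l and Rpl39l were within the range of core genes, from 4.45 to 31.5. Among them were Rpl36al, at 29.9-fold (26.6 to 33.5), and Rps4y2, at 15.2 (13.1 to 17.6).

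**Figure D5:**
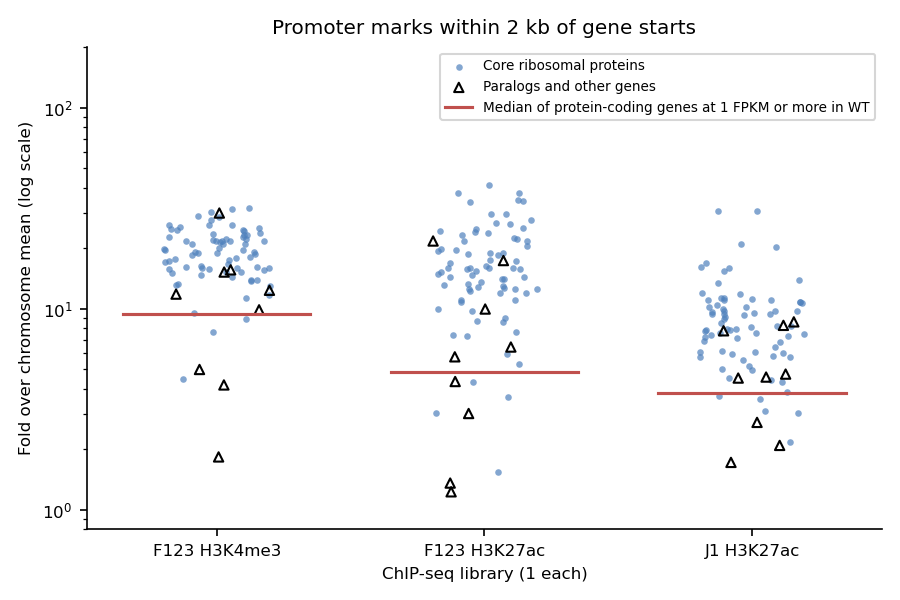
Fold over the chromosome mean within 2 kb of the gene start (log axis) in 3 ChIP-seq libraries, with dots for core genes, triangles for paralogs and other genes, and red lines for the median of protein-coding genes at 1 FPKM or more in WT (9.45, 4.84 and 3.798). Most core genes lie above the line, and Rpl3l, Rpl39l and Rpl10l lie below it in each library.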

How the data were processed

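Strand-specific polyA+ RNA-seq of 4 F123 clones and ChIP-seq of 3 ESC libraries were analysed, with 1 library per condition. The authors mapped reads to mm9 with Novoalign (RNA-seq, with USeq) or Bowtie (ChIP-seq), per the labels and the study's methods, and versions are not given in the sources used here. The deposited files list 1 alignment or segment of a spliced alignment per line with, in column 5, a whole-number count, read here as the count of identical reads collapsed into it. That reading comes from the values.

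Segments were counted by midpoint, on the strand opposite to the line, in exonic bases of GENCODE M1 (NCBIM37) that belong to 1 gene. A gene entered the comparison with 200 or more of these bases and a mean FPKM of 1 or more, and libraries were compared as log2 ratios of FPKM + 4, the pseudo-value of the study's methods, with marks at 1.5-fold and 3-fold. Ratios as percent of WT carry no pseudo-value. Library size was the alignments on genes. Equal depth was the expected number of distinct alignments at the reads of the smallest library. With 1 library per condition, no comparison of a clone with WT had replicates for a test, and the exact 95% Poisson and binomial intervals leave out variation between clones. They take each alignment or read as an independent count, although a spliced read counts once for each segment. They can therefore be too narrow even for counting error. At this depth the 95% interval of the median member reached 0.07, 0.09 and 0.09 (log2) to each side in the 3 clones. ChIP 5′ ends were counted within 2 kb of gene starts over the chromosome mean. Exact copies were 50-base windows found elsewhere in NCBIM37.

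The members and lists were chosen with earlier results of these data known. Named genes were all paralogs with their partners, the 5 highest and 5 lowest in WT, the 3 highest and 3 lowest ratios per clone, members past 1.5-fold in all clones and both units, and the ends of each list in CAST-/129-. Other genes named (Rpl13, Rpl27, Rplp0, Thy1, the members at the ends of the ChIP-seq range, Rps4y2 and Rpl36al there, Eef1d, Myc, Mycn, Cdkn1a beside Trp53) were chosen after their values were seen. On simulated counts for CAST-/129- over WT with 31498 genes, 100 of 100 genes raised 2-fold and 99 of 100 lowered 2-fold were called at 1.5-fold. Of unchanged genes, 0 of 4321 were called. All of these were at 20 FPKM or more. The simulation drew Poisson counts in proportion to WT distinct alignments, without collapsing of reads or variation between clones. It therefore cannot show how often depth, collapse or clone variation gives a call in the data. Counting and statistics ran in Python 3.11.15 with scipy 1.17.1, numba 0.67.0, pandas 2.3.3 and numpy 2.4.6, sequence comparison in Biopython 1.88 and plots in matplotlib 3.10.9. Some genes that these rules would name are not reported here.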

Additional observations from a re-analysis of the deposited data

How the results depend on the processing

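No paired analysis was possible because each condition had 1 library, and for the same reason no replicate could be left out. Below, values are in the order CAST+/129-, CAST-/129+ and CAST-/129-, and the values in distinct alignments were medians of 0.40, 0.63 and 0.44 with 7, 52 and 11 genes at least 1.5-fold higher and 1, 2 and 2 lower. The median kept its sign for both monoallelic clones under each alternative run. For CAST-/129- it was negative in reads (-0.11), at equal reads (-0.054), in aligned bases weighted by reads (-0.13), in reads without paralogs (-0.11) and in reads over coding sequence (-0.11). The last of these, the coding sequence in distinct alignments and reads without paralogs were chosen after seeing the data. The cause of the difference between units for CAST-/129- was not tested.

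The median for CAST-/129+ was 0.18 in reads and at equal reads, 0.20 (0.205) in aligned bases weighted by reads, 0.20 in reads without paralogs and 0.23 in reads over coding sequence, and that for CAST+/129- was 0.21 at equal reads. Over the 9 members with few exact copies, the medians of CAST-/129+ and CAST-/129- were 0.45 (0.445) and 0.29, with 1, 3 and 0 genes higher and 0, 1 and 1 lower. Counts past 1.5-fold moved as follows. In reads, 3 and 1 genes were higher in CAST-/129+ and CAST-/129-, and 2 and 1 lower in CAST+/129- and CAST-/129+. At equal reads, 1, 1 and 0 were higher and 1 was lower in CAST-/129+. Of 13577 genes at equal reads, 1028, 1317 and 1727 were higher, and 1053 were lower in CAST-/129+. In aligned bases weighted by reads, 3 and 1 were higher in CAST-/129+ and CAST-/129-, and 1 lower in CAST-/129+. With library size as all alignments in the file, 13, 32 and 20 were higher and 1 was lower in CAST-/129+, and with a median of ratios 14 and 24 were higher in CAST+/129- and CAST-/129-. A pseudo-value of 1 gave 2 lower in CAST+/129-, and one of 10 gave 3 higher in CAST+/129- and 1 lower in CAST-/129+. A mean of at least 100 FPKM, or leaving out paralogs, gave 0 lower in each clone. Of all 640 genes with a mean of at least 100 FPKM, 13, 12 and 29 were lower. In reads without paralogs, 2 and 0 were higher in CAST-/129+ and CAST-/129-, and 0, 0 and 1 lower. Over coding sequence, 24 were higher in CAST-/129- in distinct alignments, and in reads 2 and 1 were higher in CAST-/129+ and CAST-/129-, and 2, 1 and 4 lower.

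The share of counts on the 85 genes, in the order WT, CAST+/129-, CAST-/129+ and CAST-/129-, was 1.62%, 2.14%, 2.47% and 2.16% in distinct alignments, 5.62%, 7.01%, 6.31% and 5.13% in reads, 2.27%, 2.62%, 2.55% and 2.16% at equal reads, 1.55%, 2.05%, 2.34% and 2.04% in aligned bases, and 4.54%, 5.71%, 5.12% and 4.15% in aligned bases weighted by reads. Within 1 kb of gene starts, the median fold over the chromosome mean was 29.5 for F123 H3K4me3, 23.9 for F123 H3K27ac and 11.1 for J1 H3K27ac, against 18.6, 15.2 and 7.92 within 2 kb. In the median member, 50% of the exonic 50-base windows have a copy elsewhere, and how the aligner placed such reads is not given in the sources used here.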

Other observations

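The processed copies of these genes gave a further view of the same reads. Summed over 163 pseudogenes whose names follow the ribosomal protein genes and contain -ps, reads were 385147, 159866, 65706 and 46478 in WT, CAST+/129-, CAST-/129+ and CAST-/129-. This was 10.6%, 10.3%, 10.5% and 10.6% of the reads on the 85 genes, so the ratio of pseudogene to gene reads lay within a narrow range in the 4 libraries. In distinct alignments the same ratio was 44.4%, 36.1%, 29.5% and 26.9%, lower in each shallower library. How many of these reads belong to the genes was not tested.

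Alignments on the strand opposite to the 85 genes were 1.22%, 1.11%, 0.681% and 0.639% of those on the gene strand. Annotated small nucleolar RNAs overlap the spans of Rpl21, Rpl32, Rpl4 and Rps12 on the same strand, looked up among the named genes alone, and bases that fall in exons of more than 1 gene were counted for none.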
